A study of Homo sapiens with 38 samples.

Results

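The comparison described here sets 2 libraries of cells grown for 8 days with 3.0 µM CT (CT3.0) against 2 libraries of cells grown for 8 days with 2.0 µM CT (CT2.0). The members are the 4 libraries whose labels give day 8 and one of these doses, of 38 libraries in the series. All 4 come from wild-type cells of H9, an established human embryonic stem cell line, differentiated toward neural progenitor cells. CT is the WNT pathway activator that the labels give only by this abbreviation. Neither group received IWP2, an inhibitor of WNT secretion, or retinoic acid. The study graded WNT activity to give its neural progenitors forebrain to spinal cord identities, and sampled 19 groups of 2 libraries at days 0, 4 and 8 by poly(A) RNA sequencing. Its design text calls the 2 libraries of a group biological replicates and does not say whether they are separate differentiations. The p-values of the fit therefore measure the spread between libraries of the same group. That spread was pooled over all 19 groups and not taken from these 4 libraries alone. The libraries are bulk RNA from 1 cell line, in which fewer cells of a type and less RNA per cell cannot be told apart.

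WNT activity sets position along the head-to-tail axis of the early neural plate, with more activity giving more posterior fates. Posterior position is read out by the HOX genes, which lie in 4 clusters and are switched on in order, low-numbered paralogues in the hindbrain and higher-numbered ones in the spinal cord. The trunk spinal cord and the adjoining mesoderm are both fed by axial progenitors in the tail bud, which carry T (brachyury), CDX2 and SP5 under joint WNT and FGF signals, and which are distinct from committed neural progenitors carrying SOX1, PAX6 and HES5.

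The CT3.0 cells had high trunk HOX genes and almost no transcript of the neural progenitor genes SOX1 and HES5, and the CT2.0 cells had the opposite pattern. HOXB9, a trunk-level homeobox gene (chr17:48621159-48626356, minus strand), had 349 and 290.0 TPM in the CT3.0 libraries, against 1.05 and 7.98 TPM in the CT2.0 libraries (log2 fold change 6.22, SE 0.51, adjusted p = 2.4e-09). Both CT3.0 libraries lay far above both CT2.0 libraries, and the 2 CT2.0 libraries were themselves unequal. HES5, a NOTCH target that keeps neural progenitors undifferentiated (chr1:2528745-2530245, minus strand), had 2.36 and 0.585 TPM in the CT3.0 libraries, against 116 and 138 TPM in the CT2.0 libraries (log2 fold change -5.79, SE 0.33, adjusted p = 5.9e-12). SOX1, a marker of neural plate commitment (chr13:112067647-112070488, plus strand), had 0.436 and 0.248 TPM in the CT3.0 libraries, against 52.5 and 37.6 TPM in the CT2.0 libraries (log2 fold change -5.08, SE 0.23, adjusted p = 2.1e-13). Both genes were near the bottom of the scale in each CT3.0 library and well expressed in each CT2.0 library. CDKN1A, the cell cycle inhibitor p21 and a p53 target (chr6:36676460-36687339, plus strand), had 133 and 118 TPM in the CT3.0 libraries, against 8.06 and 8.61 TPM in the CT2.0 libraries (log2 fold change 3.76, SE 0.23, adjusted p = 2.6e-11). LDHA, the lactate dehydrogenase subunit of glycolysis (chr11:18394388-18408425, plus strand), had 276 and 347 TPM in the CT3.0 libraries, against 72.3 and 84.6 TPM in the CT2.0 libraries (log2 fold change 1.97, SE 0.21, adjusted p = 1.4e-07). For these 5 genes the groups did not overlap. TPM, a relative transcript abundance scaled by transcript length, sums to the same total in each library. Fold changes are on log2(TPM + 1), which understates changes of low genes, and were tested with limma. Values after "rose by" or "fell by", and single values in parentheses, are log2 fold changes. Coordinates are those of GENCODE release 29 on hg38, and each covers the whole gene.

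**Figure D1:**
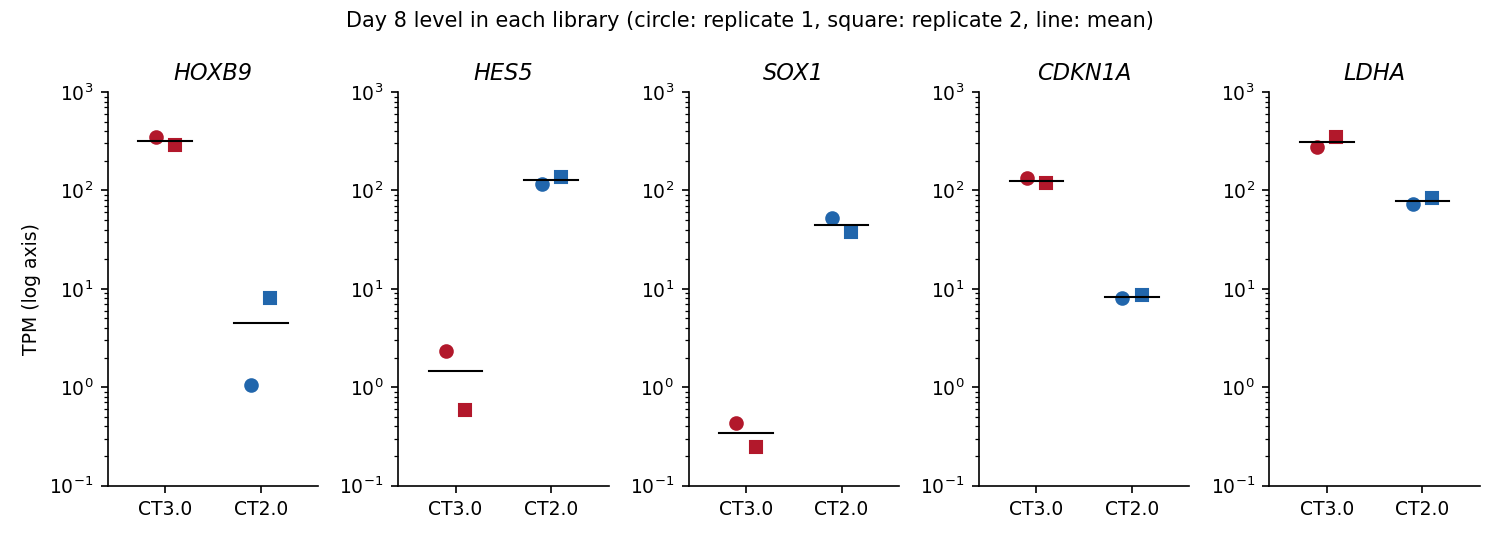
TPM on a log axis for HOXB9, HES5, SOX1, CDKN1A and LDHA in the day 8 CT3.0 libraries (red) and CT2.0 libraries (blue), with circles for replicate 1, squares for replicate 2 and a line at the mean. HOXB9, CDKN1A and LDHA are higher in both CT3.0 libraries, and HES5 and SOX1 are lower in both.

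Of 28221 genes tested, 1152 rose at CT3.0 and 2480 fell, with a call needing an adjusted p under 0.05 and a log2 fold change of at least 1 in either direction. These are 4.08% and 8.79% of the genes tested, or 12.9% together. The fall covered 68.3% of the calls. The cytosolic ribosomal protein genes took 31.08% and 30.63% of all TPM in the CT3.0 libraries, against 28.81% and 29.82% in the CT2.0 libraries. The difference of means was 1.54 percentage points, and an exact two-sided permutation test gave p = 0.333, the smallest that 2 against 2 libraries allow. None of the 79 ribosomal protein genes was called by limma, although 20 had an adjusted p under 0.05, while without adjustment 24 upward and 5 downward differences had p under 0.05. Their log2 fold changes ran from -0.27 to 0.41 with a median of 0.07, beside -0.09 over all genes tested. With the ribosomal protein and mitochondrial genes taken out and the rest rescaled, 1351 genes rose and 2773 fell. With median-of-ratios scaling, which adds 0.239 to the log2 difference between the groups, 1704 rose and 1878 fell, and the share of falls was 52.4%. The replicates correlated at r = 0.9651 for CT3.0 and 0.9658 for CT2.0 over log2(TPM + 1), and each of the 4 libraries correlated best with its own replicate. The CT3.0 libraries had 17931 and 18039 genes at 1 TPM or more, against 18906 and 18964 in the CT2.0 libraries.

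Of the gene lists described below, the HOX genes of paralogue groups 1 to 9 had the highest median changes. Summed over the 39 HOX genes, the level was 2094 and 2430 TPM in the CT3.0 libraries, against 270.5 and 301.6 TPM in the CT2.0 libraries. There were 24 HOX genes at 1 TPM or more in each CT3.0 library, against 8 and 11 in the CT2.0 libraries. In paralogue groups 5 to 9, which mark the cervical and thoracic cord, 13 of 14 genes tested rose and none fell (0 lower at an unadjusted p under 0.05 by limma), with a median log2 fold change of 5.29. Of these, HOXA5, HOXA9, HOXC9 and HOXD8 were listed at 0 in both CT2.0 libraries, and the median of the other 10 was 5.56. Most of the 14 were under 1 TPM in both CT2.0 libraries, where no fall on log2(TPM + 1) can reach the threshold. Those genes were kept for testing through their levels in other libraries, so the absence of falls is no result for them. The summed level of the 14 was 1034 and 1204 TPM at CT3.0, against 1.96 and 15.6 TPM at CT2.0. The second CT2.0 library was the higher of its pair, and both lay far below the CT3.0 libraries. HOXB7 had 134 and 161 TPM in the CT3.0 libraries, against 0 and 0.769 TPM in the CT2.0 libraries (log2 fold change 6.79, adjusted p = 7.2e-15). HOXB6 had 213 and 259 TPM at CT3.0, against 0.512 and 2.4 TPM at CT2.0 (log2 fold change 6.70). HOXA7 had 68.3 and 112 TPM at CT3.0, against 0.0848 and 0.407 TPM at CT2.0 (log2 fold change 6.16). In all 3 the lower CT3.0 library was far above the higher CT2.0 library. HOXC6 and HOXC8, of the HOXC cluster, rose by 5.72 and 5.40 on the log2 scale. HOXA9 had 53.9 and 78.5 TPM at CT3.0 and was listed at 0 in both CT2.0 libraries, for which no fold is given. HOXC9 had 10.9 and 30.0 TPM at CT3.0, and it too was listed at 0 at CT2.0. HOXD8 did not pass, with 0.374 and 0.291 TPM at CT3.0.

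The first 4 paralogue groups, which pattern the hindbrain, did not move as 1 block. Of 12 genes tested, 8 rose and 3 fell, with a median of 3.04, or 3.70 over the 11 that were above 0 at CT2.0. The most posterior of them rose most. HOXB4 had 132 and 137 TPM in the CT3.0 libraries, against 0.226 and 1.87 TPM in the CT2.0 libraries (log2 fold change 6.17). HOXA4 had 46.1 and 62.7 TPM at CT3.0, against 0.0516 and 0.0974 TPM at CT2.0 (log2 fold change 5.67). HOXD4 had 61.3 and 68.6 TPM at CT3.0, against 0.263 and 0.429 TPM at CT2.0 (log2 fold change 5.62). These group 4 genes were below 2 TPM in each CT2.0 library, and the groups did not overlap. HOXC4, the fourth of the group, had 138 and 163 TPM at CT3.0, against 3.8 and 2.25 TPM at CT2.0 (log2 fold change 5.26). HOXB3, already expressed at CT2.0, had 556 and 642 TPM at CT3.0, against 42.5 and 47.9 TPM at CT2.0 (log2 fold change 3.70), and HOXA3 rose by 3.82. HOXD3 had 3.24 and 5.44 TPM at CT3.0 and was listed at 0 at CT2.0. The genes that fell were of groups 1 and 2. HOXA2, which patterns rhombomere 2, had 5.79 and 7.15 TPM in the CT3.0 libraries, against 43.6 and 37.2 TPM in the CT2.0 libraries (log2 fold change -2.47, adjusted p = 9.4e-10). HOXB1, the rhombomere 4 gene, had 44 and 47 TPM at CT3.0, against 90.7 and 107 TPM at CT2.0 (log2 fold change -1.10). HOXB2 had 38.5 and 41.9 TPM at CT3.0, against 84.2 and 85.5 TPM at CT2.0 (log2 fold change -1.06). HOXB1 and HOXB2 passed the fold threshold narrowly, and neither passed with median-of-ratios scaling or with a pseudocount of 0.1. HOXB1 also missed it, at -0.98, without the second CT2.0 library.

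By cluster, the highest paralogue at 1 TPM or more was HOXA9 in both CT3.0 libraries, against HOXA3 in both CT2.0 libraries. In the HOXC cluster it was HOXC9 at CT3.0, against HOXC4 at CT2.0. In the HOXD cluster it was HOXD4 at CT3.0, and no HOXD gene reached 1 TPM at CT2.0. The HOXB cluster reached HOXB9 in all 4 libraries. HOXB genes held most of the HOX transcripts, with 1544 and 1664 TPM at CT3.0, against 219.5 and 256.6 TPM at CT2.0. Paralogue groups 10 to 13, of the lumbar cord and tail, were at or near 0 in both groups. Only HOXA10 and HOXC10 of their 12 genes were tested and neither passed (1 higher at an unadjusted p under 0.05 by limma), with HOXC10 at 0.564 and 0.525 TPM at CT3.0, against 0 and 0 TPM at CT2.0. HOXB-AS3, an antisense transcript over HOXB3 to HOXB6, had 1240.0 and 1436 TPM at CT3.0, against 1.5 and 4.49 TPM at CT2.0 (log2 fold change 8.49), a gene singled out after its values were seen. Of the 28 HOX genes tested, 20 overlap another tested HOX gene and 26 overlap some other tested gene in the annotation, HOXB9 for example lying inside the annotated span of HOXB7. Whether quantification used strand is not given in the sources used here, so the split of reads among neighbours in a cluster is uncertain.

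**Figure D2:**
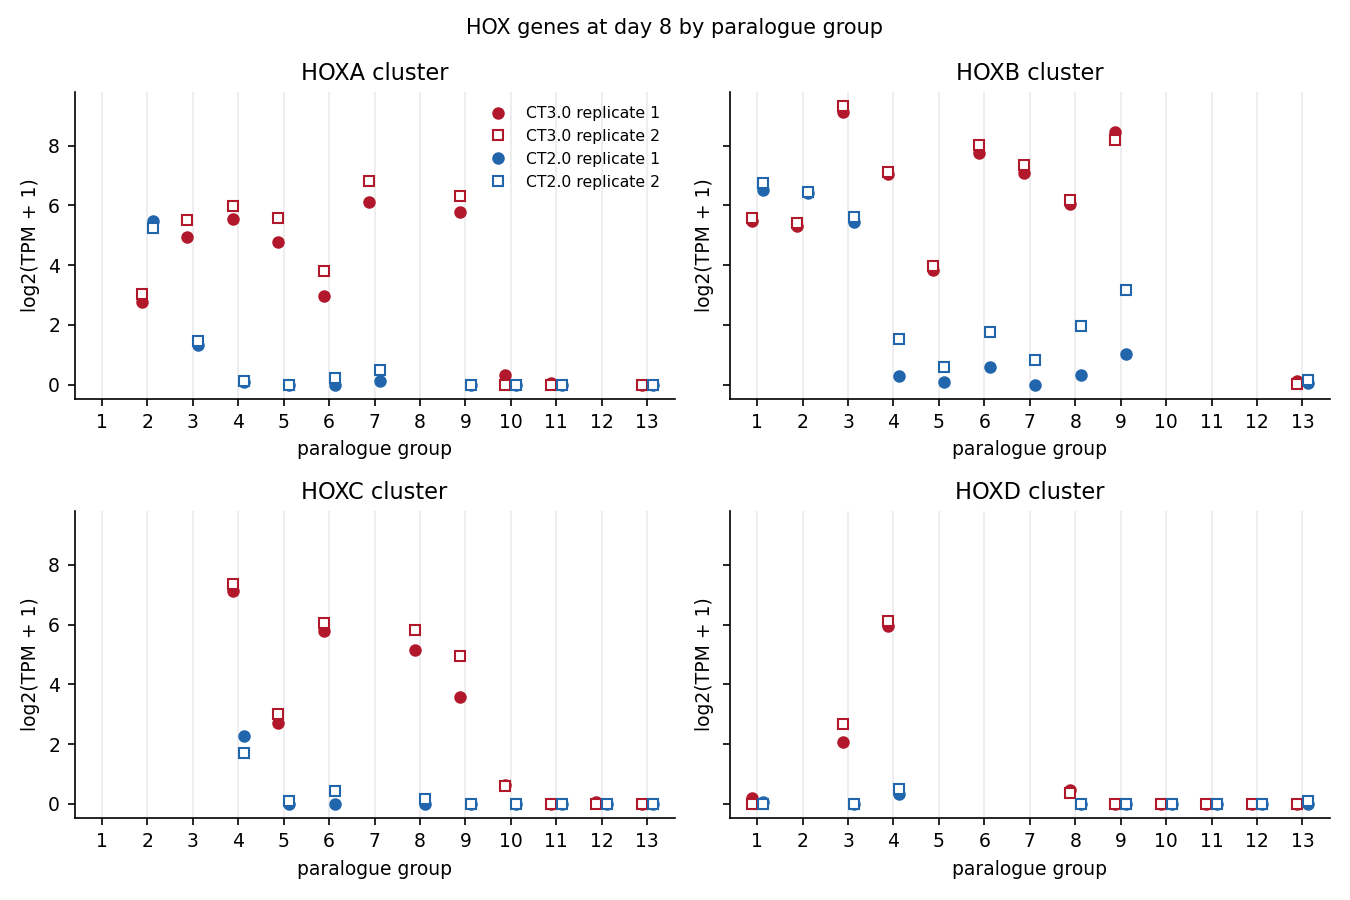
Level of the HOX genes reported here, as log2(TPM + 1), by paralogue group in the 4 clusters, with CT3.0 libraries in red and CT2.0 libraries in blue (filled circles replicate 1, open squares replicate 2). CT3.0 libraries are higher from group 3 to group 9, other than HOXD9 near 0 in both, and lower at HOXA2, HOXB1 and HOXB2, and groups 10 to 13 lie near 0 in both.

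The genes common to neural progenitors of all regions fell in part. Of 24 tested, 3 rose and 11 fell, with a median log2 fold change of -0.89 beside -0.09 over all genes. PAX6, the homeobox gene of dorsal and intermediate progenitors, had 6.8 and 4.78 TPM in the CT3.0 libraries, against 178 and 169 TPM in the CT2.0 libraries (log2 fold change -4.70, adjusted p = 3.8e-15). SOX3, a close relative of SOX1 and SOX2, had 12.9 and 10.7 TPM at CT3.0, against 152 and 134 TPM at CT2.0 (log2 fold change -3.49). NES, the intermediate filament nestin, had 81.7 and 87.2 TPM at CT3.0, against 632 and 594 TPM at CT2.0 (log2 fold change -2.85). In none of these did the groups overlap, though SOX3 and NES kept levels above 10 TPM at CT3.0. CDH2, neural cadherin, had 82.8 and 86.9 TPM at CT3.0, against 333 and 329 TPM at CT2.0 (log2 fold change -1.95). POU3F2, LIX1 and SOX21 fell by 3.41, 3.07 and 2.31. SOX2, which neural and axial progenitors and pluripotent cells share, did not pass. It had 176 and 173 TPM in the CT3.0 libraries, against 159 and 169 TPM in the CT2.0 libraries (log2 fold change 0.09, adjusted p = 0.56). ZIC2 (0.04) and NCAM1 (0.17) also did not pass. FABP7, a radial glia gene, had a log2 fold change of 0.39 and an adjusted p of 0.043, under the fold threshold. The genes that rose were NKX1-2, HES1 and PLAGL1. NKX1-2, which marks the caudal lateral epiblast and the preneural tube, had 12.4 and 18.6 TPM at CT3.0, against 0.155 and 0.394 TPM at CT2.0 (log2 fold change 3.68). PLAGL1 rose by 1.58. Summed over the list, the level was 1036 and 1111 TPM at CT3.0, against 2833 and 2736 TPM at CT2.0. Both groups are labelled neural progenitor cells, and of the 5 genes taken here as defining them SOX1, HES5 and PAX6 fell at CT3.0, while SOX2 and FABP7 did not pass.

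Hindbrain factors fell more often than they rose, with 9 of 17 lower and 2 higher and a median of -1.11. EGR2 (KROX20), which defines rhombomeres 3 and 5, had 0.319 and 0.109 TPM in the CT3.0 libraries, against 38.3 and 24.2 TPM in the CT2.0 libraries (log2 fold change -4.70, adjusted p = 5.9e-12). MEIS2, a TALE homeobox partner of HOX proteins, had 9.29 and 8.28 TPM at CT3.0, against 121 and 124 TPM at CT2.0 (log2 fold change -3.66). GBX1 and MEIS1 fell by 3.73 and 2.23. The CT2.0 libraries thus carried hindbrain genes together with HOX genes of groups 1 to 3, and in the CT3.0 libraries EGR2 and GBX1 were near 0. The labels name no region for either group, and the design text ties CT doses to diencephalic, midbrain and hindbrain fates as a range. The 2 that rose were PAX8 and PAX2, of the isthmus and otic region. PAX8 had 24.4 and 17.6 TPM at CT3.0, against 0.089 and 0.43 TPM at CT2.0 (log2 fold change 4.12), and PAX2 rose by 2.13. GBX2, of the anterior hindbrain and caudal epiblast, did not pass, with 10.7 and 11.8 TPM at CT3.0, against 12.9 and 11.5 TPM at CT2.0. IRX3 did not pass either (-0.11).

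Genes of the rostral forebrain were already low at CT2.0. Of 15 tested, 3 fell and none rose (0 higher at an unadjusted p under 0.05 by limma), and the median was -0.14. The 3 were PAX6, NR2F1 and NR2F2, none of which is confined to the forebrain. NR2F1 (COUP-TFI), an orphan nuclear receptor, had 0.665 and 0.078 TPM in the CT3.0 libraries, against 129 and 105 TPM in the CT2.0 libraries (log2 fold change -6.45, adjusted p = 1.1e-14). NR2F2 (COUP-TFII) had 1.93 and 0.705 TPM at CT3.0, against 102 and 86.7 TPM at CT2.0 (log2 fold change -5.41). SIX3, SIX6 and RAX had log2 fold changes between -0.15 and 0.02 and did not pass. Each of NR2F1 and NR2F2 overlaps an antisense transcript in the annotation, and the reads of a gene and its antisense partner may not be separated.

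The NOTCH pathway, in which DLL and JAG ligands activate NOTCH receptors and RBPJ then turns on HES genes, was split. Of 23 genes tested, 4 rose and 7 fell, with a median of -0.39. Among the ligands DLL1, DLL4 and JAG1 fell by 1.08, 1.76 and 1.33 on the log2 scale. The receptors NOTCH1, NOTCH2 and NOTCH3 did not pass (0.29, 0.21 and -0.53). LFNG, a glycosyltransferase that tunes the receptors, had 18.9 and 20.2 TPM at CT3.0, against 156 and 150.2 TPM at CT2.0 (log2 fold change -2.91), and its relative MFNG rose by 1.46. RBPJ, the DNA-binding partner of the cleaved receptor, had 132 and 125 TPM at CT3.0, against 49.1 and 52.1 TPM at CT2.0 (log2 fold change 1.33). The HES targets went opposite ways. HES5 fell, as above, and HES4 by 1.57, and the feedback inhibitor NRARP by 1.25. HES1 had 24.8 and 26.6 TPM in the CT3.0 libraries, against 2.72 and 3.23 TPM in the CT2.0 libraries (log2 fold change 2.75, adjusted p = 2.1e-09). HES7, the oscillating factor of the segmentation clock in presomitic mesoderm, had 14.8 and 20.0 TPM at CT3.0, against 1.02 and 0.719 TPM at CT2.0 (log2 fold change 3.29). HES1 and HES7 were thus higher in both CT3.0 libraries than in either CT2.0 library.

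The promoters of HES5 and HES1 are shown because the 2 genes moved in opposite directions. Each run is the 250 bases before the annotated start in RefSeq on GRCh38.p14, read 5′ to 3′ on the gene's strand, with the letters GTGGGAA or their reverse complement TTCCCAC, the core of an RBPJ site, in capitals. HES5 (chr1:2530264-2530513, minus strand) holds 2 matches, beginning 224 and 81 bases before the start, and HES1 (chr3:194135898-194136147, plus strand) holds 1, beginning 85 bases before it.
HES5: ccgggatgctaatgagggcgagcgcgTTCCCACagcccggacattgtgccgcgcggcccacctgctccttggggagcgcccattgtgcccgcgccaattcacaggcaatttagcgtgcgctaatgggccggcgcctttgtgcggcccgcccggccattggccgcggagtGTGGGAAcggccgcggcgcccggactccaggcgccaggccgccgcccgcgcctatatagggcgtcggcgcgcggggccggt
HES1: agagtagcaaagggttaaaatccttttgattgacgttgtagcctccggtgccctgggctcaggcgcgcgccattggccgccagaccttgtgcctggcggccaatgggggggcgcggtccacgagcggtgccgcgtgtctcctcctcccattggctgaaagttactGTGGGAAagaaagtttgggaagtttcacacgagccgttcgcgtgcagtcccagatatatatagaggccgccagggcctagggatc
Both promoters hold the letters, whichever way the gene moved. Of 35116 promoter windows of this length, 5.43% hold them, against 5 of the 19 NOTCH list members with a window (HES4, HES5, HEYL, HES1 and HEY2). Of the 3 members with a window that rose, 1 holds them. The list was built from NOTCH pathway genes, HES genes among them, so its share and that of all windows are not like for like. A match is a description of sequence and not evidence of binding.

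Neuronal genes were lower at CT3.0. Of 23 neuronal and proneural genes tested, 15 fell and none rose (1 higher at an unadjusted p under 0.05 by limma), with a median of -1.23. DCX (doublecortin), a microtubule protein of young neurons, had 0.285 and 0.217 TPM in the CT3.0 libraries, against 32.8 and 38.8 TPM in the CT2.0 libraries (log2 fold change -4.88, adjusted p = 1.1e-14). TUBB3, neuronal beta-tubulin, had 94.6 and 111 TPM at CT3.0, against 385 and 408 TPM at CT2.0 (log2 fold change -1.94). STMN2, a microtubule regulator in growing axons, had 29.3 and 22.3 TPM at CT3.0, against 75.6 and 93.9 TPM at CT2.0 (log2 fold change -1.68). The groups did not overlap for any of the 3, and TUBB3 and STMN2 remained well above 0 at CT3.0. Among the proneural transcription factors NEUROG2 did not pass (0.73). NHLH1 had 0.292 and 0.18 TPM at CT3.0, against 7.85 and 11.5 TPM at CT2.0 (log2 fold change -3.09), and NEUROG3, NEUROD1 and NEUROD4 fell by 2.02, 1.99 and 1.94. GAP43 (-0.15) and ELAVL3 (-0.06) did not pass. Summed over the list, the level was 251 and 266 TPM at CT3.0, against 789 and 849 TPM at CT2.0.

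Some of the caudal and axial progenitor genes rose at CT3.0. Of 16 tested, 7 rose, 1 fell and 8 did not pass, with a median of 0.43, and 4 more on the list (MSGN1, MIXL1, EVX1 and FGF4) did not reach the filter on low values. CDX2, a direct activator of trunk HOX genes, had 55.4 and 84.2 TPM in the CT3.0 libraries, against 0.0174 and 0.0326 TPM in the CT2.0 libraries (log2 fold change 6.08, adjusted p = 2e-15). T (brachyury), required for tail bud progenitors, had 10.2 and 9.45 TPM at CT3.0, against 0 and 0.0506 TPM at CT2.0 (log2 fold change 3.40). Both were close to absent in each CT2.0 library. FGF8, a ligand of the caudal epiblast and of the isthmus, had 187 and 256 TPM at CT3.0, against 3.44 and 1.44 TPM at CT2.0 (log2 fold change 6.06). FGF17, a ligand of the same subfamily, had 117 and 132 TPM at CT3.0, against 1.33 and 0.457 TPM at CT2.0 (log2 fold change 6.09). Neither ligand reached 4 TPM in a CT2.0 library. CYP26A1, the retinoic acid-degrading enzyme of the tail bud, went the other way, with 0 and 0.367 TPM at CT3.0, against 12.7 and 6.08 TPM at CT2.0 (log2 fold change -3.07). TBX6, which commits axial progenitors to mesoderm, had 1.19 and 0.56 TPM at CT3.0, against 0.644 and 0.298 TPM at CT2.0, and did not pass. CDX1 (0.04) and CDX4 (0.44), paralogues of CDX2, did not pass, nor did SALL4 (0.43). URAD, whose annotated end lies 6575 bases from CDX2 on the same strand of chromosome 13, had 51.3 and 61 TPM at CT3.0, against 0.0893 and 0 TPM at CT2.0 (log2 fold change 5.77).

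FGF8 and FGF17 also head a midbrain and isthmus list, on which 3 of 14 genes rose, 2 fell and the median was -0.01. Of other genes of that region, EN1 (-0.01), EN2 (0.14), WNT1 (-0.04) and OTX2 (-0.43) did not pass. PAX8 and PAX2, counted above with the hindbrain factors, rose. LMX1B and POU4F1 fell by 1.23 and 1.06, LMX1B without a call (-0.69) when the first CT2.0 library was left out.

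Many of the genes that FGF signalling induces as feedback rose, beside the ligands FGF8 and FGF17. Of 20 genes of FGF and ERK signalling, 13 rose and 1 fell, with a median of 2.02. DUSP6, a phosphatase that switches off ERK, had 125 and 164 TPM in the CT3.0 libraries, against 9.22 and 4.48 TPM in the CT2.0 libraries (log2 fold change 4.26, adjusted p = 1.5e-10). ETV4 and ETV5, transcription factors induced by ERK, rose by 3.93 and 3.65, with ETV4 at 26.4 and 20.1 TPM at CT3.0, against 0.48 and 0.681 TPM at CT2.0. SPRY2, SPRY1 and SPRY4, the Sprouty inhibitors, rose by 2.90, 2.59 and 2.42, and IL17RD, another inhibitor, by 2.61. FOS rose by 1.94. FGF3, of the hindbrain, fell by 1.11, and the ligands FGF9 (-0.16) and FGF19 (-0.05), FGF13 (-0.35), and the feedback genes DUSP5 (0.10) and SPRED1 (-0.52) did not pass. The list summed to 750.2 and 897 TPM at CT3.0, against 136 and 119.8 TPM at CT2.0, and the groups did not overlap.

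Canonical WNT targets and feedback genes were split. Of 21 tested, 6 rose and 6 fell, with a median of 0.04. SP5, a transcription factor directly induced by beta-catenin, had 89.8 and 102 TPM in the CT3.0 libraries, against 0.311 and 1.37 TPM in the CT2.0 libraries (log2 fold change 5.78, adjusted p = 1e-08). NKD1, a feedback inhibitor, had 137 and 173 TPM at CT3.0, against 13.9 and 10.8 TPM at CT2.0 (log2 fold change 3.55), and its relative NKD2 rose by 2.49. LEF1, the nuclear partner of beta-catenin, had 85.9 and 87.8 TPM at CT3.0, against 20.3 and 22.4 TPM at CT2.0 (log2 fold change 1.98). ZNRF3, which removes WNT receptors, rose by 1.43, and the WNT deacylase NOTUM by 1.38. AXIN2, the target most used as a readout of the pathway, did not pass the fold threshold (0.74, adjusted p = 0.021), although it did without the first CT3.0 library (1.00). Among the genes that fell were 3 secreted antagonists. SFRP1 had 44.8 and 45.5 TPM at CT3.0, against 399 and 375 TPM at CT2.0 (log2 fold change -3.07), and FRZB and SFRP2 fell by 2.87 and 2.55. LGR5, the R-spondin receptor, fell by 3.06 and MYC by 1.85. The WNT ligands were low in both groups, with 1 of 13 higher and 1 lower. WNT5A, a ligand of the tail bud, rose by 1.24, and WNT7A fell by 1.75.

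The promoter of SP5 (chr2:170715087-170715336, plus strand) is shown because it had the largest change on the WNT list. Capitals mark 1 match to CTTTGAT or its reverse complement ATCAAAG, the core of a TCF/LEF site, beginning 109 bases before the start, in the 250 bases before the RefSeq start on GRCh38.p14.
SP5: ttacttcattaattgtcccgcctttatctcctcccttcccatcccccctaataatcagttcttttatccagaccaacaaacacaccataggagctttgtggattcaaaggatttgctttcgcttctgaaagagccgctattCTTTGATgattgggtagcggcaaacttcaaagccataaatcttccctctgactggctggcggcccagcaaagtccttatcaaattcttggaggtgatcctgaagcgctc
These letters are in 2.26% of all windows of this length. Of the 12 WNT list members with a window, SP5 alone holds them.

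Retinoid genes moved in both directions. Of 17 tested, 3 rose and 4 fell, with a median of -0.26. CRABP1, which binds retinoic acid in the cytoplasm, had 179 and 65.6 TPM in the CT3.0 libraries, against 4544 and 4176 TPM in the CT2.0 libraries (log2 fold change -5.32, adjusted p = 3.2e-09). The CT3.0 libraries differed from each other, the first being the higher, and both lay far below the CT2.0 libraries. CYP26B1 fell by 2.84, and RARB, a receptor gene that retinoic acid induces, by 1.99. RARG, the receptor of the tail bud, rose by 2.17, and the uptake receptor STRA6 by 1.59.

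On the BMP list 4 of 22 genes rose and 3 fell, with a median of -0.06. MSX1 and MSX2, homeobox genes of the dorsal neural plate border, rose by 3.70 and 2.25. The ID genes, all inhibitors of bHLH factors, were split. ID3 had 156 and 150.2 TPM at CT3.0, against 32.9 and 38.5 TPM at CT2.0 (log2 fold change 2.07). ID4 had 1.31 and 2.65 TPM at CT3.0, against 46.6 and 33.9 TPM at CT2.0 (log2 fold change -3.81). ID1 and ID2 fell by 1.72 and 1.55. The genes that divide the neural tube along its dorsal to ventral axis fell in 5 of 18 cases and rose in 2. DBX1, of intermediate progenitors, had 0 and 0.0876 TPM at CT3.0, against 46.8 and 25.2 TPM at CT2.0 (log2 fold change -5.08), and DBX2 fell by 3.08. GLI1, a target of hedgehog signalling, fell by 3.16 and SHH itself by 1.84. OLIG3, of dorsal hindbrain and cord progenitors, rose by 3.01.

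Many markers of the other cell types such cultures could hold were low in both groups, while others, such as LIN28A, were high in both. The part of such cells in the results above was not tested. Of 25 mesoderm markers 12 did not reach the filter, and of the 13 tested only T rose, while PAX3 and TCF15 fell by 2.98 and 1.69. Their summed level was 15.1 and 14.8 TPM at CT3.0, against 29.3 and 23.2 TPM at CT2.0. On the endoderm list CDX2 rose and FOXA1 fell, of 6 tested. The list summed to 60.3 and 88.2 TPM at CT3.0, against 2.99 and 5.15 TPM at CT2.0, and CDX2 made up most of the sum at CT3.0. FOXA1 was not called without the first CT3.0 library (-1.05) or the second CT2.0 library (-0.82). Of 20 neural crest markers 5 rose and 5 fell, with a sum of 108 and 147 TPM at CT3.0, against 238 and 238 TPM at CT2.0. The defining genes SOX10 and FOXD3 were at 0.123 TPM or less in all 4 libraries. CDH6 and SNAI1 rose by 2.84 and 2.33. Of 18 placode and surface ectoderm markers 3 rose and 2 fell, with a sum of 84.8 and 102 TPM at CT3.0, against 47.2 and 55 TPM at CT2.0. KRT18 and KRT8, keratins of simple epithelia, rose by 2.24 and 1.17, and EYA1 fell by 2.93. KRT8 was under the fold threshold without the second CT3.0 library (0.93) or the first CT2.0 library (0.94). On the pluripotency list 2 of 18 rose, L1TD1 by 1.83 and DPPA4 by 1.02. The list summed to 707 and 689 TPM at CT3.0, against 694 and 716 TPM at CT2.0. DPPA4 was under the fold threshold without the first CT3.0 library (0.95) or the first CT2.0 library (0.89). POU5F1 had 2.82 and 1.36 TPM at CT3.0, against 1.55 and 1.79 TPM at CT2.0, and NANOG was at 0.168 TPM or less in all 4 libraries. LIN28A had 432 and 409.8 TPM at CT3.0, against 463 and 472 TPM at CT2.0, and did not pass.

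Targets of p53 and genes of the stress response rose at CT3.0. Of 22 tested, 16 rose and 1 fell, with a median of 1.45, and the list summed to 1463 and 1510.0 TPM at CT3.0, against 559.6 and 569 TPM at CT2.0. GDF15, a secreted stress cytokine, had 16.4 and 15.6 TPM in the CT3.0 libraries, against 0.407 and 0.443 TPM in the CT2.0 libraries (log2 fold change 3.58, adjusted p = 5.9e-12). ATF3, a transcription factor of the stress response, had 42.7 and 40.6 TPM at CT3.0, against 6.78 and 5.04 TPM at CT2.0 (log2 fold change 2.64). FAS, the death receptor, had 23.4 and 25.1 TPM at CT3.0, against 4.26 and 3.76 TPM at CT2.0 (log2 fold change 2.33). DDIT4, an inhibitor of mTORC1, had 404 and 436 TPM at CT3.0, against 91.7 and 114 TPM at CT2.0 (log2 fold change 2.03). The groups did not overlap for any of these. ZMAT3, SESN1 and BBC3 (PUMA), all p53 targets, rose by 2.18, 1.91 and 1.80, and ASNS, a target of ATF4, by 1.58. MDM2, the p53 target that degrades p53, did not pass, with 27.2 and 22.1 TPM at CT3.0, against 32.3 and 25.4 TPM at CT2.0. HSPA5, the chaperone of the unfolded protein response, did not pass (0.24), and neither did BAX (0.99), which did pass with median-of-ratios scaling, a pseudocount of 0.1, the ribosomal protein and mitochondrial genes left out, or without the first CT3.0 library (1.12) or the second CT2.0 library (1.01). TP53I3, another p53 target, fell, with 6.27 and 9.27 TPM at CT3.0, against 19.8 and 18.6 TPM at CT2.0 (log2 fold change -1.23).

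Glycolysis and hypoxia genes rose at CT3.0 in 16 of 28 cases, with 1 lower and a median of 1.26. SLC2A3 (GLUT3), a glucose transporter, had 202 and 222 TPM in the CT3.0 libraries, against 32.8 and 36 TPM in the CT2.0 libraries (log2 fold change 2.59, adjusted p = 5.9e-11). PGK1, phosphoglycerate kinase, had 906 and 949.9 TPM at CT3.0, against 217 and 199 TPM at CT2.0 (log2 fold change 2.15). HK2, hexokinase, rose by 1.98, the lactate exporter SLC16A3 (MCT4) by 2.14 and the prolyl hydroxylase P4HA1 by 2.00. ADM, adrenomedullin, rose by 2.08. The abundant enzymes GAPDH (0.25) and ENO1 (0.92) did not pass, although ENO1 did with median-of-ratios scaling. EGLN3, an oxygen sensor and itself a hypoxia target, fell by 1.25.

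The promoters of LDHA (chr11:18394313-18394562, plus strand) and PGK1 (chrX:78103998-78104247, plus strand) are shown as members that rose together. Capitals mark the letters ACGTG or their reverse complement CACGT, the core of a hypoxia response element, in the 250 bases before the RefSeq start on GRCh38.p14. LDHA holds 5 matches that overlap into 3 capital runs, and PGK1 holds 2, beginning 202 and 183 bases before the start.
LDHA: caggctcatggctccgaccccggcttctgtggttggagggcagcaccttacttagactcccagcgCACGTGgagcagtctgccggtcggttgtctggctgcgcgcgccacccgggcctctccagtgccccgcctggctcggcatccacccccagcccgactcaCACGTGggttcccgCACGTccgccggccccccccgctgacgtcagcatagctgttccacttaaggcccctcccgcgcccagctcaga
PGK1: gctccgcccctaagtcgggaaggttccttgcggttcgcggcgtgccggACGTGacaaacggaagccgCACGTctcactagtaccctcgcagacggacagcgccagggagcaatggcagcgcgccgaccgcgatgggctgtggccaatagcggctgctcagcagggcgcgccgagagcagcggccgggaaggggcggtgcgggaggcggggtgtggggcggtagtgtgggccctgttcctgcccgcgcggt
The letters are common, in 18.5% of all windows of this length. They are in 12 of the 25 list members with a window, and in 10 of the 13 of these that rose. The list was built from glycolysis and hypoxia genes, so its share and that of all windows are not like for like. Here, and for SP5 above, a match is not evidence of binding. The part of hypoxia signalling in the rise was not tested.

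Genes of cholesterol synthesis rose in 15 of 20 cases and none fell (0 lower at an unadjusted p under 0.05 by limma), with a median of 1.25. INSIG1, which holds the sterol sensor in the endoplasmic reticulum and is itself a target of SREBP2, had 103 and 106 TPM in the CT3.0 libraries, against 14.7 and 17 TPM in the CT2.0 libraries (log2 fold change 2.65, adjusted p = 1.8e-11). MSMO1, a sterol demethylase, had 257 and 256 TPM at CT3.0, against 43.5 and 50.5 TPM at CT2.0 (log2 fold change 2.43). FDFT1 (squalene synthase), STARD4 and HMGCS1 rose by 1.89, 1.97 and 1.84. FDPS (0.90) did not pass, although it did with median-of-ratios scaling. The list summed to 3448 and 3515 TPM at CT3.0, against 1289 and 1282 TPM at CT2.0, so the groups did not overlap.

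Few proliferation genes were called, with 1 of 26 higher and 1 lower, beside 4.08% and 8.79% of all genes, and a median of 0.27. Without adjustment 14 upward and 9 downward differences had p under 0.05 by limma, so smaller shifts went both ways. The list summed to 2337 and 2370 TPM at CT3.0, against 1799 and 1833 TPM at CT2.0. CCND2, a D-type cyclin, had 215 and 239 TPM at CT3.0, against 42.1 and 44.5 TPM at CT2.0 (log2 fold change 2.36), and CCNE2 fell by 1.32. MKI67 had a log2 fold change of -0.62 and did not pass. No gene of 19 translation factors was called by limma, although without adjustment 10 upward and 1 downward difference had p under 0.05, and the median was 0.18. EIF4A2 came nearest at 0.94. Among genes of adhesion and matrix 4 of 30 rose and 6 fell. LAMB1 and COL1A1 rose by 2.72 and 2.30, and THBS1 and TAGLN fell by 2.78 and 2.01. Among annexins, S100 genes and related small proteins 4 of 19 rose and 6 fell. S100A10 and S100A11 rose by 2.97 and 2.32, and ANXA1 fell by 3.54. TMSB4X, an actin-binding peptide, had 878 and 952 TPM at CT3.0, against 2989 and 2841 TPM at CT2.0 (log2 fold change -1.67).

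**Figure D3:**
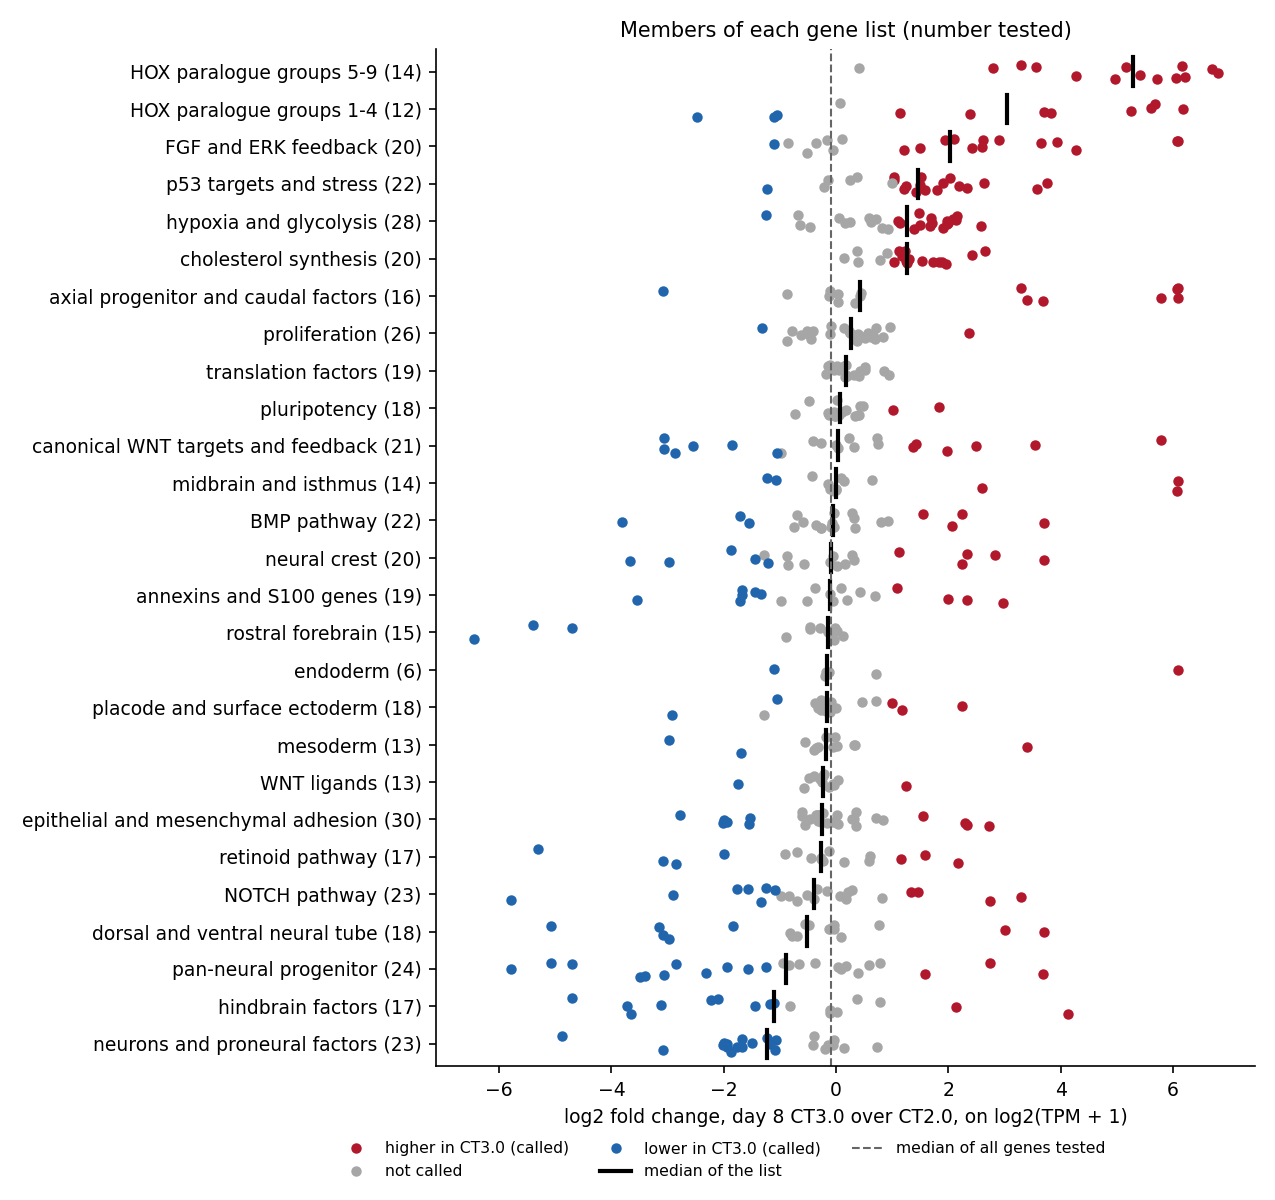
Log2 fold change of day 8 CT3.0 over CT2.0 for each tested member of the gene lists (dots at fitted values, also for genes listed at 0 at CT2.0, red where called higher, blue where called lower, grey otherwise), with a thick line at each list's median and a dashed line at the median of all genes tested. HOX paralogue groups 5 to 9 lie farthest to the right, and neuronal, hindbrain and pan-neural lists lie farthest to the left.

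Several of the largest changes were in genes outside these lists. PAPLN, an extracellular matrix protein, had 0.966 and 0.325 TPM in the CT3.0 libraries, against 183 and 126 TPM in the CT2.0 libraries (log2 fold change -6.56, adjusted p = 2.5e-13). PCDH8, a protocadherin, had 0.421 and 0.0147 TPM at CT3.0, against 74.6 and 109 TPM at CT2.0 (log2 fold change -6.25). PLXNA2, a semaphorin receptor, and GRIK3, a kainate receptor subunit, fell by 5.41 and 5.69. PBX3, a TALE partner of HOX proteins, had 4.06 and 0.685 TPM at CT3.0, against 97.5 and 89.5 TPM at CT2.0 (log2 fold change -5.01). The groups did not overlap in any of these. On the side that rose, C3orf52 had 208 and 246 TPM at CT3.0, against 1.74 and 1.45 TPM at CT2.0 (log2 fold change 6.46), and it overlaps GCSAM by 10164 bases on the opposite strand of chromosome 3. GCSAM, looked at because of that overlap, had 33.5 and 40.7 TPM at CT3.0, against 0.235 and 0.231 TPM at CT2.0, and reads could be shared between them. SAT1, the spermine and spermidine acetyltransferase, had 1138 and 1279 TPM at CT3.0, against 40.0 and 35.4 TPM at CT2.0 (log2 fold change 4.96), a gene chosen after its values were seen.

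Over the day 8 dose series, the widest step of the group means between neighbouring doses on log2(TPM + 1) lay between CT2.0 and CT3.0 for each of the 5 markers, which were given with the comparison. Over the 7 CT doses in rising order (0, 0.4, 0.8, 1.0, 2.0, 3.0 and 4.0 µM), mean SOX1 was 13.8, 13.5, 37.5, 75.7, 45, 0.342 and 0.113 TPM. Mean HES5 was 156, 15, 30.6, 65.1, 127, 1.47 and 0.34 TPM over the same doses. SOX1 thus stayed above 10 TPM up to CT2.0 and was under 1 TPM from CT3.0 on, and HES5 fell at the same place after a low at CT0.4. Mean HOXB9 was 0.123, 0.131, 0.198, 0.118, 4.51, 319 and 176 TPM, and mean CDX2 was 0.0462, 0.0482, 0.114, 0.124, 0.025, 69.8 and 131 TPM. HOXB9 was lower at CT4.0 than at CT3.0, although that step did not pass the test (adjusted p = 0.68 by limma). Mean CDKN1A was 9.95, 18.8, 30.7, 15.6, 8.34, 126 and 139 TPM, with its lowest value at CT2.0. CDKN1A therefore did not follow the dose in order, and CT2.0 was the low point against which CT3.0 was set. Mean LDHA was 32.6, 32.7, 44.3, 38.8, 78.5, 312 and 415 TPM, with CT2.0 already above the lower doses. Mean INSIG1 was 52.5, 54.3, 46.3, 22, 15.8, 104 and 91.5 TPM, lowest at CT2.0 as for CDKN1A. FGF8 and SP5 were not confined to the 2 highest doses. Mean FGF8 was 56.7 TPM without CT and 2.44 TPM at CT2.0, and mean SP5 was 22.9 TPM at CT0.4 and 0.842 TPM at CT2.0.

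Counted over all genes, the step from CT1.0 to CT2.0 at day 8 gave 194 genes higher (0.687% of those tested) and 304 lower, 1.76% together. The step from CT3.0 to CT4.0 gave 55 higher (0.195%) and 32 lower, 0.308% together. The CT2.0 libraries are in the step before and the CT3.0 libraries in the step after, so the 3 counts are not independent. The difference between the CT3.0 against CT2.0 step and the CT2.0 against CT1.0 step, tested in the same fit, was called for 1148 genes upward and 1819 downward, which are 4.07% and 6.45% of those tested and 10.5% together. It was called upward for 13 of the 14 tested HOX genes of groups 5 to 9, 16 of 22 p53 and stress genes and 17 of 20 cholesterol genes. On the p53 and stress list 1 gene was called downward. On the pan-neural list 12 of 24 genes were called downward and 5 upward. Most of the HOX genes counted were under 1 TPM in both CT2.0 libraries, so their count largely repeats the rise at CT3.0. Since CT2.0 is in both steps, a low at CT2.0, as in CDKN1A and INSIG1 above, widens an upward difference. The ribosomal protein share was 23.4 ± 1.06% at CT1.0, 29.3 ± 0.714% at CT2.0, 30.9 ± 0.318% at CT3.0 and 29.8 ± 0.064% at CT4.0 (SD, n = 2 each). It was thus closer between CT2.0 and CT3.0 than between CT1.0 and CT2.0.

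**Figure D4:**
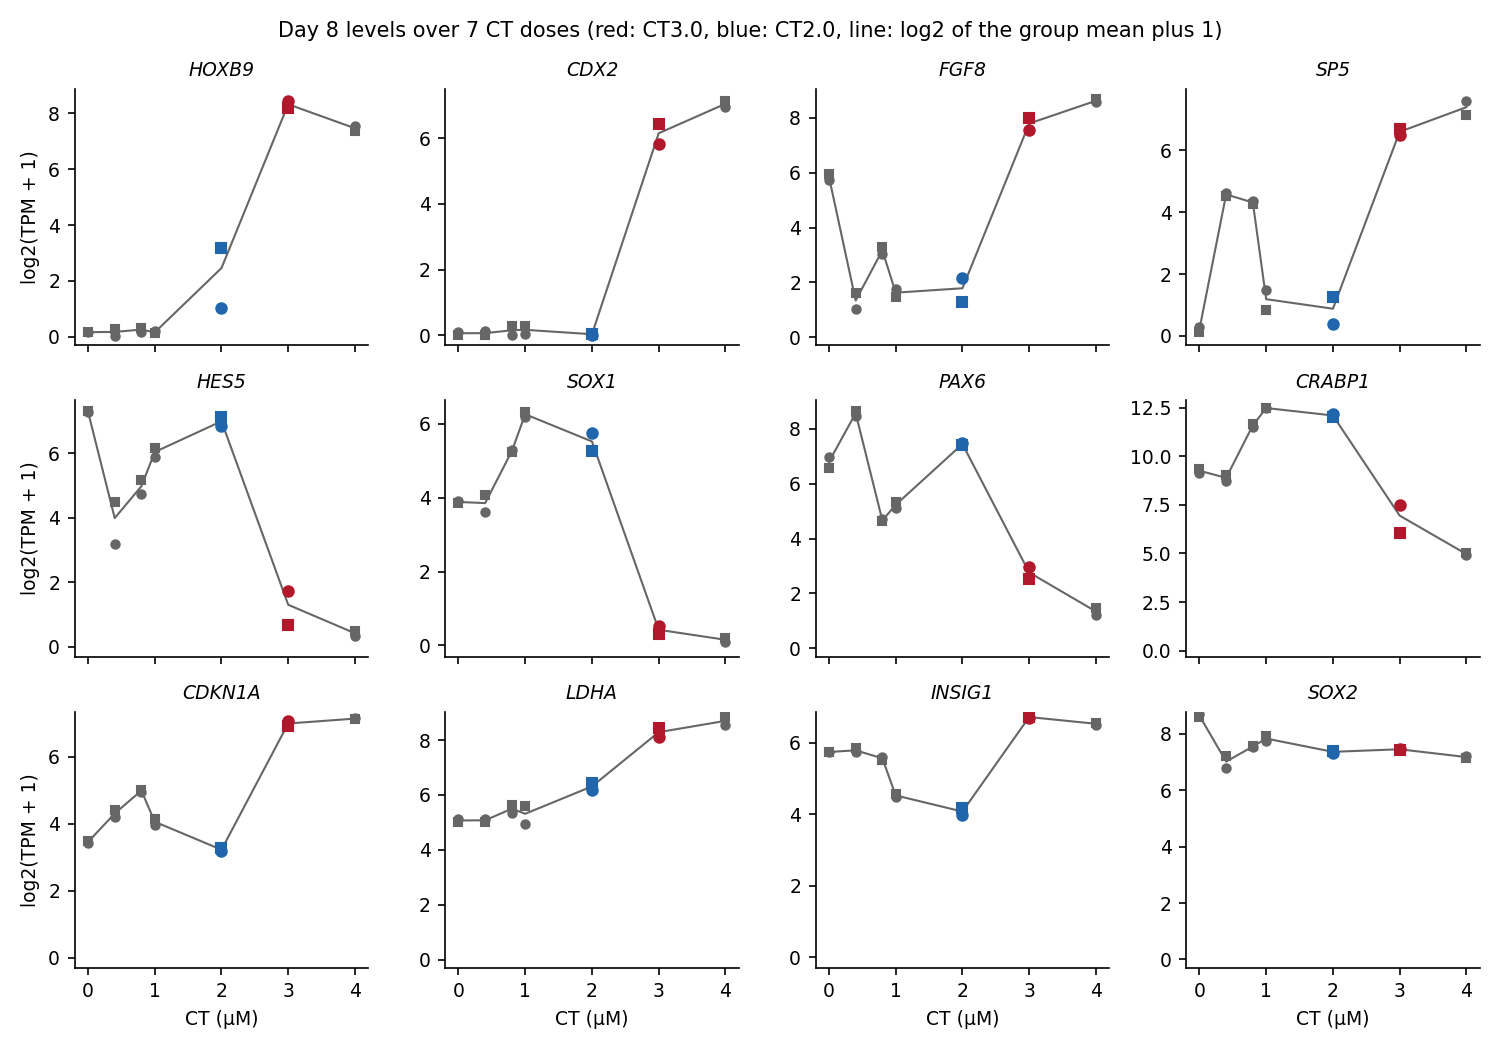
Level at day 8, as log2(TPM + 1), of 12 genes over 7 CT doses from 0 to 4.0 µM, with each library a point (circle replicate 1, square replicate 2), a line through the group means, CT3.0 in red and CT2.0 in blue. HOXB9, CDX2, FGF8 and SP5 are highest and HES5, SOX1, PAX6 and CRABP1 lowest at the 2 highest doses. FGF8 is also expressed without CT, and SP5 at 0.4 and 0.8 µM. CDKN1A and INSIG1 are lowest at CT2.0, and SOX2 is highest without CT and nearly level between CT2.0 and CT3.0.

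The same dose step had been sampled at day 4, in 4 other libraries. There 577 genes were higher at CT3.0 and 485 lower, 3.76% of those tested. The trunk HOX genes had already separated, with 13 of 14 of groups 5 to 9 higher at day 4. Only 5 and 11 of the 39 HOX genes reached 1 TPM in the day 4 CT2.0 libraries, and genes under it in both could not be called lower. HOXB9 had 572 and 427 TPM at CT3.0, against 0.444 and 5.67 TPM at CT2.0, at day 4. SOX1 had 1.94 and 0.667 TPM at CT3.0, against 91.4 and 68.6 TPM at CT2.0, at day 4. The groups did not overlap for either gene on either day, and the difference between the day 8 and day 4 steps was not called for HOXB9 or SOX1. For HOXB9 it was called without the first day 8 CT2.0 library (-2.17) or the second day 4 CT2.0 library (-2.21). FGF and ERK genes were higher at day 4 in 12 of 20 cases, and pan-neural genes lower in 10 of 24.

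Some lists held many genes whose step differed between the days. On the pan-neural list the difference was called upward for 3 and downward for 10 of 24 genes. At day 4 only 2 of 22 p53 and stress genes were called higher, against 16 at day 8, and the test of the difference between the steps was called upward for 11 of the 22, beside 1.58% of all genes. CDKN1A had 10.03 and 13 TPM at CT3.0, against 4.80 and 2.58 TPM at CT2.0, at day 4, and the day 8 step exceeded the day 4 step by 2.32 (SE 0.33, adjusted p = 3.3e-05 by limma). FAS had 7.9 and 6.28 TPM at CT3.0, against 9.86 and 10.6 TPM at CT2.0, at day 4, and its steps differed by 2.81. In FAS the CT3.0 libraries were the lower pair at day 4 and the higher pair at day 8. Among neuronal and proneural genes the difference was called downward for 12 of 23, beside 5.91% of all genes, and upward for none (0 at an unadjusted p under 0.05). STMN2 had 51.1 and 63.5 TPM at CT3.0, against 5.22 and 6.78 TPM at CT2.0, at day 4, where CT3.0 was the higher, and the steps differed by -4.74. DBX1 was at 0.194 TPM or less in all 4 day 4 libraries, so its fall was seen at day 8 only (difference -4.96). Glycolysis and cholesterol genes were called higher at day 4 in 6 of 28 and 6 of 20 cases. The difference between days was called upward for 5 of the same 28 and 2 of the same 20, beside 1.58% of all genes. INSIG1 (1.54) was among the cholesterol genes so called. With median-of-ratios scaling, which adds 0.302 to the difference between days, the number of genes called was 810 upward and 976 downward, in place of 447 and 1667, which are 7.49% of the genes tested. The ribosomal protein share at day 4 was 25.4 ± 1.14% at CT3.0 and 28.7 ± 0.035% at CT2.0 (SD, n = 2 each), so at day 4 the CT3.0 libraries had the lower share and at day 8 the higher. Its part in the difference between the days was not tested.

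**Figure D5:**
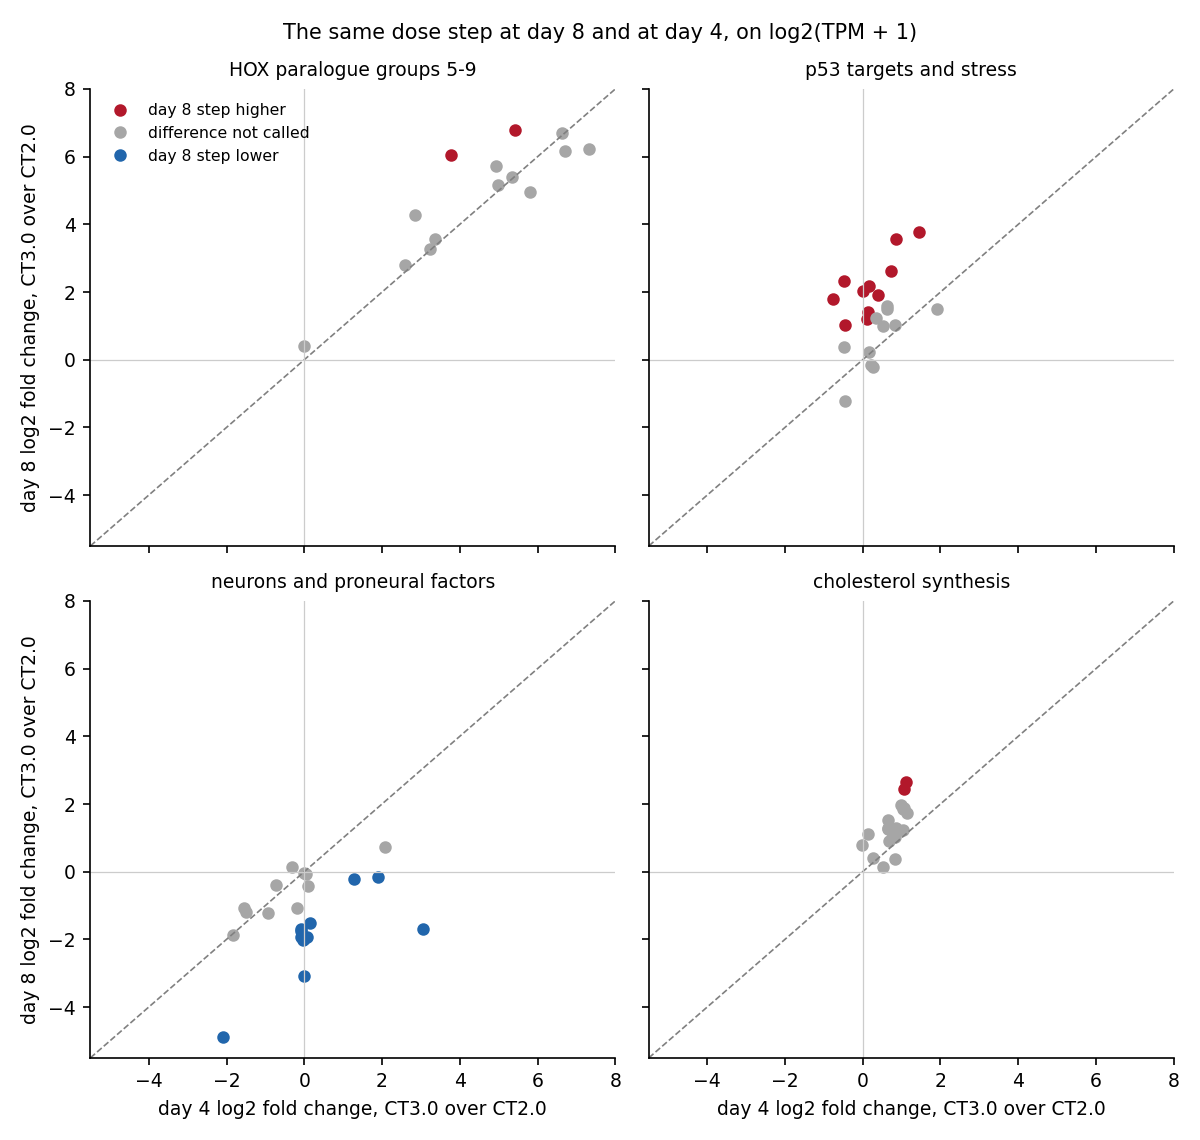
Log2 fold change of CT3.0 over CT2.0 at day 8 (vertical) against day 4 (horizontal) for the tested genes of 4 lists, on log2(TPM + 1), with the dashed line where both are equal and colour for genes whose difference between days was called. HOX genes lie along the line with 2 called above it, 11 p53 and stress genes lie above it in red and 12 neuronal genes below it in blue.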

How the data were processed

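Poly(A) RNA of 38 libraries in 19 groups was sequenced in paired ends on 1 of 2 Illumina instruments, per the labels' protocols, which do not tie libraries to instruments. The authors deposited 1 table of TPM values for 58219 genes, in which 57881 identifiers matched GENCODE release 29. CASAVA 1.7, Salmon 0.8.2 and hg38 are named per the submitters' processing notes, whereas the sources used here state neither their order nor their settings. Depth is unknown from TPM, and intervals that need it are left out.

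Genes reaching 1 TPM in 2 or more of the 38 libraries were kept, and log2(TPM + 1) was fitted with limma 3.58.1 in R 4.3.3 (19 group means, moderated variance with trend, 19 residual degrees of freedom), with Benjamini-Hochberg adjustment over all 28221 genes in each contrast. A call needed an adjusted p under 0.05 and a log2 fold change of at least 1 in size. The script was tested on simulated data. Summaries and figures were made in Python 3.11.15.

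Named genes were the 5 markers given with the comparison, the 12 called protein-coding genes of largest change in each direction whose groups did not overlap, every HOX gene, and, per list, the 4 called members of largest change and the 2 uncalled members of highest level, with the 6 of largest estimate in each direction of each difference between steps. Others are named as members of their list, or as chosen after their values were seen. Some genes that this rule names are not reported here. The members and the lists were chosen with earlier results of these data known. The labels number the libraries 1 and 2 in each group, but same-numbered libraries did not deviate together: over 171 pairs of groups the correlation of deviations ran from -0.0427 to 0.0372, and it was 0.0019 between CT3.0 and CT2.0 at day 8. Alternatives were pseudocounts of 0.1 and 0.5, no filter or a stricter one, median-of-ratios scaling, removal of ribosomal protein and mitochondrial genes, protein-coding genes alone, a fit of the compared groups alone, a replicate block, and leaving out each library. RefSeq promoter windows on GRCh38.p14 were searched on both strands.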

Additional observations from a re-analysis of the deposited data

Results flagged for a closer look

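The dose step of CT3.0 over CT2.0 differed between day 8 and day 4, by limma's test of the difference on log2(TPM + 1), for 447 genes upward and 1667 downward. Each value given is the day 8 step less the day 4 step, and each of these genes passed that test.

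Among genes of the report, the difference was 2.32 for CDKN1A, 2.81 for FAS, 1.65 for ADM and 1.54 for INSIG1. That of ADM was not called when any 1 of 4 libraries was left out (1.16 to 1.59). It was 1.37 for HOXB7 and 2.70 for HOXD4, with the step wider at day 8 in both, although that of HOXB7 was not called without the first day 8 CT2.0 library (0.96) or the first day 4 CT3.0 library (1.02), or with a pseudocount of 0.1 (1.00) or 0.5 (1.26). HOXD4 had 8.01 and 11.4 TPM at CT3.0, against 0.181 and 0.656 TPM at CT2.0, at day 4. For HES5 it was -1.53, a value that depends on the pseudocount, as given below, and that was not called when any 1 of 4 libraries was left out (-0.99 to -1.42). The HES5 difference was also not called with median-of-ratios scaling (-1.34), with ribosomal protein and mitochondrial genes removed (-1.23) or with a pseudocount of 0.5 (-1.08). The difference was -4.96 for DBX1, -4.74 for STMN2 and -5.14 for ID4. ID4 had 3.18 and 8.03 TPM at CT3.0, against 1.64 and 1.25 TPM at CT2.0, at day 4, where CT3.0 was the higher, and the order was turned round at day 8. CYP26A1 had 0 and 0.113 TPM at CT3.0, against 143 and 117 TPM at CT2.0, at day 4, a wider gap than at day 8, and its difference was 3.87. For MFNG the difference was 2.42. For FOS it was 2.62, with unequal libraries at day 4, 1.17 and 0.394 TPM at CT3.0, against 0.41 and 4.46 TPM at CT2.0, and it was not called when any 1 of 3 libraries was left out (1.64 to 2.32).

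The 6 largest upward differences include genes that were far higher at CT2.0 than at CT3.0 at day 4. GALP, a galanin-like peptide, had 1.86 and 0.276 TPM at CT3.0, against 115 and 207 TPM at CT2.0, at day 4, and its difference was 4.45. CALB2 (calretinin) had 0.155 and 0.0526 TPM at CT3.0, against 54.2 and 50.4 TPM at CT2.0, at day 4, and its difference was 4.36. ASGR1 had 10.1 and 7.12 TPM at CT3.0, against 125 and 160.1 TPM at CT2.0, at day 4, with a difference of 4.06, and had 21 and 22 TPM at CT3.0, against 19.3 and 19.1 TPM at CT2.0, at day 8. CLEC10A, another C-type lectin, was listed at 0 in all 4 day 8 libraries and had 0 and 0.0597 TPM at CT3.0, against 11.4 and 18.5 TPM at CT2.0, at day 4, with a difference of 3.92. SLC16A11 had a difference of 3.64 and 0.435 and 0.0823 TPM at CT3.0, against 17.4 and 18.6 TPM at CT2.0, at day 4. ASGR1, CLEC10A and SLC16A11 lie near each other on chromosome 17, with 93124 bases between ASGR1 and CLEC10A.

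The largest downward differences, beside those of ID4, DBX1 and STMN2, were -4.49 for CRYBB1, -4.47 for NPPB and -4.25 for SYT17. These genes were at or under 2 TPM in all 4 day 4 libraries. CRYBB1, a lens crystallin, had 0 and 0.0748 TPM at CT3.0, against 19.8 and 23.4 TPM at CT2.0, at day 8. NPPB, a natriuretic peptide, had 0 and 0.314 TPM at CT3.0, against 21.6 and 20.0 TPM at CT2.0. SYT17, of the synaptotagmin family, had 0.249 and 0.411 TPM at CT3.0, against 17.6 and 18.4 TPM at CT2.0.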

How the results depend on the processing

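With the 15533 protein-coding genes only, 655 genes rose at CT3.0 and 1727 fell, beside 645 and 1701 protein-coding genes in the fit of all genes, and the difference between days gave 295 upward and 1403 downward, beside 268 and 1275. With only the groups compared in the fit, which leaves fewer residual degrees of freedom, 733 rose and 1497 fell, the difference between days gave 284 upward and 962 downward, and the difference from the preceding dose step gave 683 upward and 864 downward. Of genes named above, CYP26A1, GLI1, NEUROG3, ADM, WNT5A, COL1A1, THBS1, CDH6, KRT8, LMX1B and FOXA1 were not called for CT3.0 against CT2.0 in that fit. Their fold changes were the same. The differences between days of HES5, HOXB7, ADM, GALP and FOS were not called in it either. With median-of-ratios scaling, the difference between days gave 810 upward and 976 downward, and the cause was not tested. Leaving out each library in turn gave 987 to 1191 genes higher and 2271 to 2642 lower, 372 to 488 upward and 1422 to 1747 downward for the difference between days, and 812 to 1167 and 1265 to 1785 for the difference from the preceding step. With a replicate block, 1151 genes rose and 2494 fell, the differences gave 454 and 1673, and 1151 and 1809, and no call of a named gene changed, although the numbers do not pair the libraries. The difference between days of HES5 was reversed in sign, to 0.146, with a pseudocount of 0.1 (adjusted p = 0.98 by limma), and the cause was not tested. Of 170 named genes, 139 kept their call for CT3.0 against CT2.0 in all 13 settings that gave one, and 31 changed in at least 1. The depth of the libraries is unknown, so what depth limits cannot be given.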

Other observations

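Genes chosen after their values were seen are given here as values only. NRP2, a receptor for semaphorins and VEGF, had 92.8 and 96.8 TPM at CT3.0, against 11.3 and 8.57 TPM at CT2.0 (log2 fold change 3.14 by limma). The mitochondrial genes took 6.61% of TPM at CT3.0 and 6.85% at CT2.0 on average, and 1 of 32 tested was called higher. Neither of the mitochondrial transcripts MT-RNR2 and MT-CO3 was called, with log2 fold changes of 0.96 for MT-RNR2 and -0.47 for MT-CO3. Host genes of small nucleolar RNAs had log2 fold changes of 0.94 for GAS5 and 1.44 for SNHG1, of which SNHG1 alone was called, and NPM1, a nucleolar protein gene, had 0.81. Of 328 snoRNA genes tested, 41 were called higher and 6 lower, beside 4.08% and 8.79% of all genes tested. The libraries were selected for poly(A), which these RNAs mostly lack, and the part of the host genes' reads in their values was not tested.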
